A study of Homo sapiens with 16 samples.

Results

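DDX3X encodes an RNA helicase of the DEAD-box family that lies on human chromosome X (ENSG00000215301, plus strand, chrX:41333284-41364472 in hg38). Footprints on it were followed through 15 coding transcript entries of 93562 in the deposited tables, and through 1 gene of the 12747 that could be named. The members were the entry uc033eaf.2, with 653 codons counted, and the other coding entries that lie between those of the neighbouring genes USP9X and NYX. Most match a DDX3X transcript by length. The short ones that match none, listed below, were included by their position alone. These 15 entries held 8 distinct sets of counts, because reads are repeated over every entry of a gene that contains them. The entry uc033eaf.2 stood for the whole coding sequence.

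DEAD-box helicases bind RNA and ATP between their RecA-like domains and open short stretches of structure. DDX3X acts on the structured leaders of some mRNAs during initiation, and it has been reported to bind eIF4E, eIF4G and eIF3 and to enter stress granules. eIF4A, its relative in the cap-binding complex eIF4F, is the known target of rocaglamide A (RocA), a plant flavagline that clamps eIF4A onto purine-rich RNA. The title of the study names DDX3 as a further target of the compound, so the question here was how ribosomes on the DDX3X mRNA itself were placed with and without RocA.

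Ribosome footprints, the RNase I-resistant RNA fragments under ribosomes, were sequenced from 4 established wild-type human cancer cell lines. NCI-H1650 and NCI-H520 come from lung cancer, and Hs 936.T and A375 from melanoma. Each line gave 2 libraries after DMSO, 1 after 0.3 µM RocA and 1 after 3 µM RocA, all for 30 min, which makes 16 libraries. Nothing in the labels says that the DMSO libraries came from separate cultures, so their spread may be technical, and the single treated libraries have no replicate of their own. No RNA-seq was used, so a change in footprints cannot be told apart from a change in mRNA, and all levels are relative to the footprints of the same library.

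Counts over named genes ran from 735479 to 4118139 in DMSO libraries and from 64533 to 761980 in RocA libraries, so treated values rest on fewer reads. For NCI-H520, 1 of the DMSO libraries (replicate 2) and the library at 3 µM carry conflicting labels, with NCI-H520 in the title and NCI-H521 as the cell line. Keratin 8 and EPCAM footprints marked both lung lines and were at or near 0 in Hs 936.T, as were E-cadherin footprints in both melanoma lines. Keratin 18 (KRT18), of the same epithelial list, was read in the melanoma line A375 too, at 379 ± 2.50 CPM (counts scaled to a common library total, SD, n = 2), against 1116 ± 29.3 in NCI-H520 and 2.64 ± 1.18 in Hs 936.T. The pigment cell gene PMEL stood at 17250 ± 536 CPM (SD, n = 2) in Hs 936.T and at 14.6 ± 5.83 CPM in A375, where the pigment markers measured were near 0. In NCI-H1650 PMEL stood at 58.4 ± 12.1 CPM (SD, n = 2) under DMSO and at 80.2 and 84.8 CPM at 0.3 and 3 µM. NCI-H520 held more PMEL, at 506.6 and 1297 CPM in its DMSO libraries and at 170.4 and 380.4 CPM at 0.3 and 3 µM. Other pigment markers (TYRP1, DCT and SLC45A2) moved with it there, and their part in the NCI-H520 values below was not tested. The library of A375 at 0.3 µM stood apart in DDX3X itself, and DDX3X values and list counts over the lines are given with and without it.

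The sequence that opens the DDX3X coding region is shown first, because the results turn on how many ribosomes were found in it. It joins the first 4 of 17 coding exons (284 bases of the 1986 that encode 662 residues), with the third coding exon in capitals. The short entry uc064yqg.1, with 89 codons counted, matches the transcript DDX3X-211, annotated as a target of nonsense-mediated decay. It has 297 coding bases with its stop codon: these 4 exons and then 13 bases of an exon that the full-length form lacks (chrX:41341949-41341961). The count of uc064yqg.1, called that of the first 4 exons below, is therefore close to theirs but not exactly theirs. The entry uc011mkq.3, with 637 codons, matches DDX3X-203, which lacks the third coding exon (chrX:41339036-41339083). That exon encodes the short motif through which DDX3X has been reported to bind the cap-binding protein eIF4E.

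DDX3X, coding exons 1 to 4: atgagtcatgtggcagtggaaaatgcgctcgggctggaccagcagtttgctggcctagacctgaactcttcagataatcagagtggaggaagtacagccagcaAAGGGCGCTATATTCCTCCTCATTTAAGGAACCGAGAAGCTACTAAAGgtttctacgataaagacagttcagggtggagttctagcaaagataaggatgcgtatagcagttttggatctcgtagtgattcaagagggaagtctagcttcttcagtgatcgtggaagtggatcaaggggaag

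DDX3X, coding exon 3, with runs of at least 6 purines (A or G) in capitals: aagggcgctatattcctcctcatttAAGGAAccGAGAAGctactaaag

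The lengths of 4 other short entries matched no GENCODE transcript of DDX3X, so where they lie in the gene is not known. They were taken as DDX3X rows only by their place between the entries of its neighbours. They are uc011mks.3 with 130 codons, uc284rae.1 with 154, uc064yqn.1 with 129 and uc064yqm.2 with 155. The remaining entries have 631 to 724 codons. Those with 653 have the same counts as uc033eaf.2. The entry uc064yqa.1, with 724, is longer than it but shares its counts with uc064yqb.1 (631 codons) and with uc064yqe.1 and uc064yqf.1 (638 codons). Reads that also fit the near-identical Y-linked paralog could have been split or repeated, and no source used here says how they were treated.

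Under DMSO, DDX3X was read at similar levels in 3 lines and less in NCI-H1650. The DMSO libraries of NCI-H1650 stood at 557.51 CPM and 501.96, a mean of 530 ± 39.3 (SD, n = 2). NCI-H520 gave 592.09 and 806.46 CPM, a mean of 699 ± 152. Hs 936.T gave 741.76 and 730.71 CPM, a mean of 736 ± 7.81. A375 gave 885.1 and 698.85 CPM, a mean of 792 ± 132. Both NCI-H1650 libraries lay below all 6 others, whereas the libraries of the other 3 lines overlapped.

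In edgeR's quasi-likelihood test over 9033 genes, with Benjamini-Hochberg adjustment, the log2 difference of NCI-H1650 from Hs 936.T was -0.55 ± 0.15 (SE, adjusted p = 0.00608). The difference from A375 was -0.62 ± 0.15 (adjusted p = 0.00298). The difference from NCI-H520 was -0.44 ± 0.16 (adjusted p = 0.0309) and was no longer called without NCI-H520 DMSO replicate 2 (-0.21, adjusted p = 0.162), the library with the higher PMEL level. With either NCI-H1650 library left out, none of the 3 differences was called: the values were -0.43 and -0.55 from NCI-H520, -0.51 and -0.64 from Hs 936.T and -0.58 and -0.70 from A375, at adjusted p of 0.0624 to 0.225. The other 3 pairs of lines differed by -0.18 to -0.08 and were not called. Without NCI-H520 DMSO replicate 2, NCI-H520 differed from Hs 936.T by -0.37 (adjusted p = 0.00635) and from A375 by -0.44 (adjusted p = 0.00119), and without A375 DMSO replicate 2 it differed from A375 by -0.35 (adjusted p = 0.0144). Between these pairs of lines 56.1% to 68.8% of all genes were called, so a difference between lines is common in these data and not a mark of DDX3X. For the pair with the smallest share, NCI-H520 against A375, it was 56.1%. Of all genes 58.9%, 68.8% and 63.7% were called for NCI-H1650 against NCI-H520, Hs 936.T and A375, 59.8% for NCI-H520 against Hs 936.T and 64.9% for Hs 936.T against A375.

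Per 100 codons, DDX3X carried 81.1 ± 6.02 CPM in NCI-H1650, 107 ± 23.2 in NCI-H520, 113 ± 1.20 for Hs 936.T and 121 ± 20.2 in A375 (SD, n = 2 each). EIF4A1, the main eIF4A isoform, was read more densely in every line, from 386 ± 14.4 CPM per 100 codons in NCI-H1650 to 1209 ± 34.1 in A375. Its paralog EIF4A2 lay below DDX3X in NCI-H1650, Hs 936.T and A375, at 35.9 to 47.4 CPM per 100 codons, and above it in NCI-H520, at 164 ± 3.30. Over the 4 lines the DDX3X density spanned a narrower range than that of either eIF4A paralog.

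**Figure D1:**
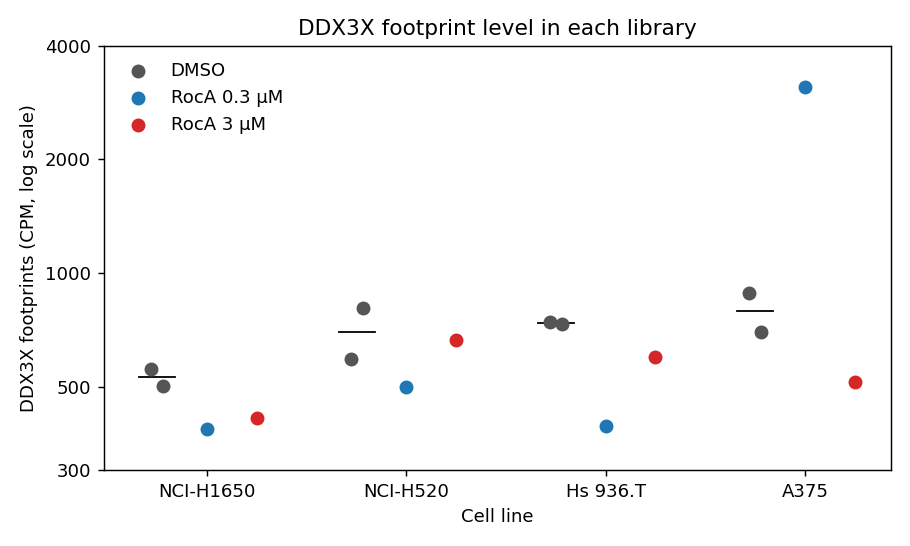
DDX3X footprint level (uc033eaf.2, CPM on a log axis) in each of the 16 libraries, by cell line and treatment; horizontal lines are the means of 2 DMSO libraries. The A375 library at 0.3 µM lies at 3122 CPM, above every other library, and each remaining RocA library lies below the DMSO mean of its own line.

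After RocA, the DDX3X footprint level was lower than the DMSO mean in 7 of the 8 treated libraries and much higher in the other. At 0.3 µM it was 386.06 CPM in NCI-H1650, 499.76 in NCI-H520, 393.75 for Hs 936.T and 3122.3 for A375. At 3 µM it was 411.98, 665.63, 599.02 and 515.46 CPM in the same order. The raw counts behind these values were 77, 132, 264 and 1260 at 0.3 µM and 34, 189, 221 and 186 at 3 µM. The A375 value at 0.3 µM thus rests on 1260 reads in a single library, and what set it apart was not tested. Of the 7 lower libraries, NCI-H520 at 3 µM lay between its 2 DMSO libraries, and the other 6 lay below both DMSO libraries of their line.

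Over the 4 lines, no change with dose was called. With the line as a term, the log2 change was 0.35 ± 0.44 at 0.3 µM (SE, edgeR adjusted p = 0.526) and -0.34 ± 0.47 at 3 µM (adjusted p = 0.572). The difference of 3 µM from 0.3 µM was -0.69 ± 0.55 (adjusted p = 0.617), and 0.35 ± 0.17 (adjusted p = 0.306) without A375 at 0.3 µM. Of 7588 genes tested, 59.0% were called at 0.3 µM, 56.1% at 3 µM and 3.31% between the doses. Without the A375 library at 0.3 µM, the change was -0.68 ± 0.14 at 0.3 µM (adjusted p = 0.000104) and -0.32 ± 0.12 at 3 µM (adjusted p = 0.0246), both called as falls. Leaving out that library therefore changed both calls and the direction at 0.3 µM. With no filter on low counts and all libraries kept, the change at 3 µM was called too, at -0.46 ± 0.12 (adjusted p = 0.000444). The median log2 change of all genes was -0.09 at 0.3 µM and -0.16 at 3 µM.

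Line by line, with the spread taken from the 4 DMSO pairs, DDX3X rose in A375 at 0.3 µM by 1.98 ± 0.16 on the log2 scale (edgeR adjusted p = 3.95e-06). It fell in Hs 936.T at that dose, with a change of -0.90 ± 0.21 (adjusted p = 0.00546). The changes of -0.46 ± 0.29 in NCI-H1650 and -0.49 ± 0.25 in NCI-H520 were not called at 0.3 µM. In these 4 tests 40.3%, 39.0%, 25.7% and 28.8% of all genes were called, in the order A375, Hs 936.T, NCI-H1650 and NCI-H520. At 3 µM the changes were -0.36 ± 0.40 in NCI-H1650, -0.08 ± 0.23 in NCI-H520, -0.30 ± 0.21 for Hs 936.T and -0.62 ± 0.22 for A375, and none was called. At that dose 9.96%, 31.9%, 35.7% and 36.4% of all genes were called in these lines. Leaving out single DMSO libraries brought 2 more calls. In NCI-H520 at 0.3 µM the change was -0.70 (adjusted p = 0.00159) without its own replicate 1, and -0.50 without either A375 library (adjusted p = 0.0415 and 0.0421). In A375 at 3 µM it was -0.77 (adjusted p = 0.0014) without its own replicate 2, and -0.61 to -0.60 without a library of NCI-H520 or Hs 936.T (adjusted p = 0.000612 to 0.0453). In NCI-H520 at 3 µM it was 0.17 without DMSO replicate 2, not called. Each of these responses rests on 1 treated library, and the test assumes that it varies like the DMSO libraries.

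The difference between lines was tested directly. At 0.3 µM the response of DDX3X in A375 exceeded the mean response of the other lines by 2.60 ± 0.22 on the log2 scale (edgeR adjusted p = 0.000263). Only 11 genes of 7588 (0.145%) were called in that comparison, and the difference was larger than that of DDX3X in IFT80 alone, at 4.95 ± 0.90 (IFT80, an intraflagellar transport gene, is named after its value was seen). All 8 distinct DDX3X rows were called in it, at 1.91 to 3.12. The adjustment counted each of these rows beside the genes, although they share reads. With 1 row per gene the adjusted p of DDX3X would be larger and fewer genes could be called, which was not computed. The pigment cell and epithelial markers were looked up in that library too. PMEL stood at 89.21 CPM and TYRP1 at 17.35, above the 18.74 and 10.49 CPM (PMEL) and 3.31 and 1.79 CPM (TYRP1) of A375 under DMSO and near the 85.91 and 13.86 CPM of A375 at 3 µM. EPCAM and CDH1 were at 0, and KRT18 was at 485.7 CPM, between the 377.1 to 380.6 CPM under DMSO and the 623.5 CPM at 3 µM. Their part in the DDX3X value was not tested. Hs 936.T differed from the mean of the other lines by -1.25 ± 0.25 (adjusted p = 0.0233, with 3.90% of genes called). Without the A375 library this difference was -0.43 ± 0.28 (adjusted p = 0.511), so the call rested on it. It was also lost without either DMSO library of NCI-H1650, at -1.30 (adjusted p = 0.0767) and -1.26 (adjusted p = 0.0828). For NCI-H1650 and NCI-H520, 0.250% and 0.527% of genes were called at 0.3 µM and DDX3X was not, although without NCI-H520 DMSO replicate 1 the NCI-H520 difference of -0.91 was (adjusted p = 0.00722). At 3 µM DDX3X was called in none of the 4 lines, at edgeR unadjusted p of 0.221 to 0.941, with 0.909%, 2.13%, 0.211% and 0.185% of genes called for NCI-H1650, NCI-H520, Hs 936.T and A375.

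The ribosomes that remained on DDX3X after RocA lay more towards the start of the coding sequence. Of the footprints counted on uc033eaf.2, the first 4 coding exons printed above held 9.69% to 17.1% in the 8 DMSO libraries (median 14.04%). The median is near 13.6%, the share that the 89 codons counted for uc064yqg.1 make of the 653 of uc033eaf.2. These exons held 35.1% in NCI-H1650, 33.3% in NCI-H520, 28.8% for Hs 936.T and 19.4% in A375 at 0.3 µM. At 3 µM they held 29.4%, 53.4%, 34.4% and 40.3% in the same order. All 8 treated libraries lay above all 8 DMSO libraries, and the A375 library at 0.3 µM was the lowest of the treated ones.

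Exact binomial 95% intervals, which cover counting error only, ran from 46.1% to 60.7% for NCI-H520 at 3 µM and from 17.2% to 21.7% for A375 at 0.3 µM. In NCI-H1650 at 3 µM, where 10 of 34 footprints fell in these exons, the interval of 15.1% to 47.5% reached into the DMSO range. The log2 ratio of uc064yqg.1 to uc033eaf.2 was higher with RocA than with DMSO by 1.27 on average within lines. In an exact two-sided permutation test within lines the p was 0.00154, the smallest that the 1296 arrangements allow, and 0.00216 adjusted over the 7 rows compared. Without the A375 library at 0.3 µM the difference was 1.41.

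**Figure D2:**
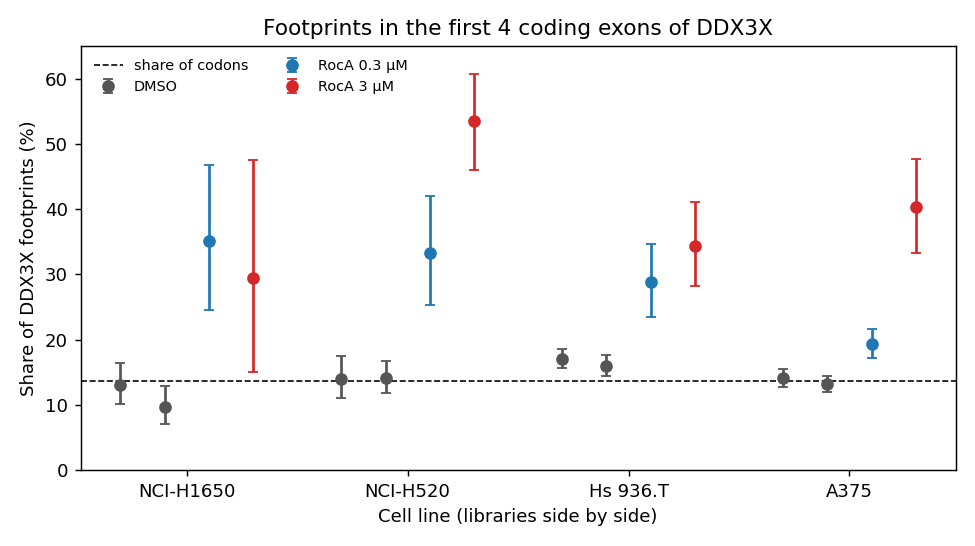
Share of DDX3X footprints in the first 4 coding exons (percent of the uc033eaf.2 count) in each library, with exact binomial 95% intervals as bars. The dashed line, 13.6%, is the share of codons counted (uc064yqg.1 of uc033eaf.2). The DMSO libraries lie at 9.69% to 17.1% and the RocA libraries at 19.4% to 53.4%.

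For footprints per codon, the 89 codons counted for uc064yqg.1 stood for the first 4 exons and the other 564 of uc033eaf.2 for the rest. On these numbers the first 4 exons were covered 0.680 to 1.30 times as densely as the rest under DMSO (median 1.035). At 0.3 µM the ratio was 1.52 in A375 and 2.56 to 3.42 in the other lines. At 3 µM it was 2.64 in NCI-H1650, 3.32 in Hs 936.T, 4.28 in A375 and 7.27 in NCI-H520.

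Split in this way, the start and the remainder of the message had changes of opposite sign in all 4 lines at 3 µM and in NCI-H1650 and NCI-H520 at 0.3 µM. At 0.3 µM both were positive in A375 and both negative in Hs 936.T. The first 4 exons (uc064yqg.1) rose over the lines by 1.29 ± 0.40 at 0.3 µM (SE, edgeR adjusted p = 0.0165) and by 1.17 ± 0.43 at 3 µM (adjusted p = 0.0403) on the log2 scale. Without the A375 library the value was 0.37 ± 0.23 at 0.3 µM (adjusted p = 0.193), no longer called, and 1.17 ± 0.19 at 3 µM (adjusted p = 1.1e-05). Line by line at 3 µM these exons rose in NCI-H520 (1.83 ± 0.26), Hs 936.T (0.76 ± 0.25) and A375 (0.96 ± 0.26), whereas the value of 0.99 ± 0.64 in NCI-H1650 was not called. At 0.3 µM they rose in A375 (2.50 ± 0.19). The values of 1.15 ± 0.43 in NCI-H1650 (edgeR adjusted p = 0.0513), 0.74 ± 0.33 in NCI-H520 (adjusted p = 0.102) and -0.10 ± 0.24 in Hs 936.T (adjusted p = 0.791) were not called at that dose.

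The rest of the coding sequence, uc033eaf.2 less uc064yqg.1, was examined after the row ratios had been seen. Over the 4 lines its change was called at neither dose, at 0.15 ± 0.48 at 0.3 µM (SE, edgeR adjusted p = 0.811) and -0.91 ± 0.53 at 3 µM (adjusted p = 0.172). It was called at both without the A375 library at 0.3 µM, at -1.02 ± 0.15 (adjusted p = 1.2e-07) and -0.87 ± 0.13 (adjusted p = 1.95e-07). Line by line, it fell at 0.3 µM in NCI-H1650 (-0.90 ± 0.29, edgeR adjusted p = 0.0353), in NCI-H520 (-0.86 ± 0.24, adjusted p = 0.0155) and in Hs 936.T (-1.13 ± 0.19, adjusted p = 0.000288). In A375 it rose by 1.88 ± 0.15 at that dose. At 3 µM it fell in NCI-H520 (-0.96 ± 0.24), Hs 936.T (-0.65 ± 0.21) and A375 (-1.15 ± 0.22), and the value of -0.69 ± 0.39 in NCI-H1650 was not called. The A375 library at 0.3 µM was thus high over both stretches of DDX3X, and the increase was not confined to the first exons.

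**Figure D3:**
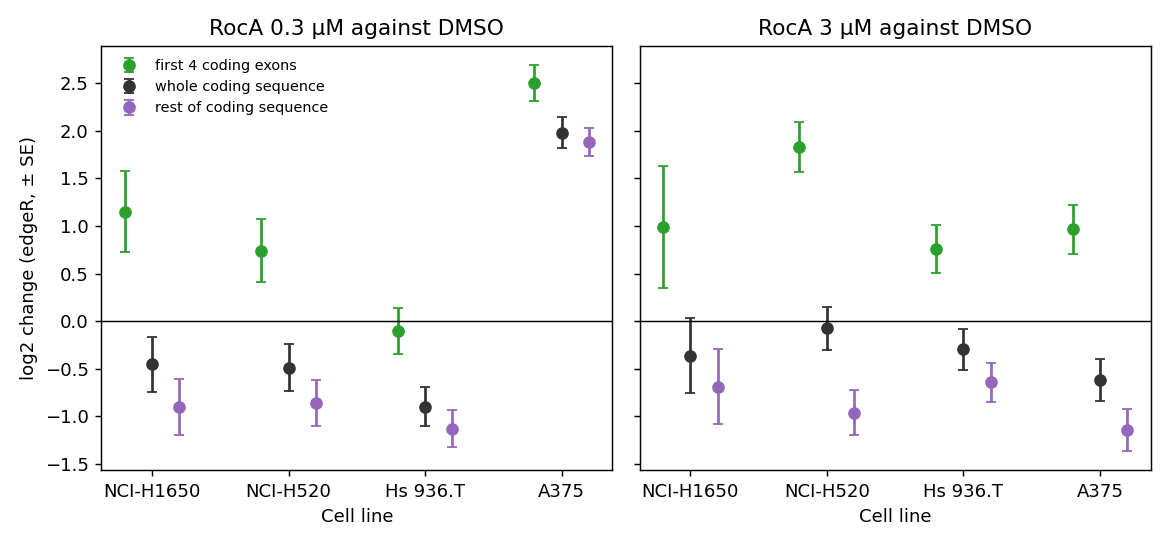
Change of DDX3X footprints against DMSO in each line (log2, edgeR, bars are SE), for the first 4 coding exons, the whole coding sequence and the rest, at 0.3 µM (left) and 3 µM (right). At 3 µM the first exons lie at 0.76 to 1.83 and the rest at -1.15 to -0.65 in the 4 lines.

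The third coding exon was measured by what uc033eaf.2 counts and uc011mkq.3 does not. It takes 16 of the 653 codons counted. It held 3.15% to 5.80% of the footprints under DMSO, 4.44% to 9.85% at 0.3 µM and 9.05% to 15.9% at 3 µM. The 4 libraries at 3 µM all lay above the 8 DMSO libraries, while those at 0.3 µM overlapped them through A375 (4.44%) and NCI-H1650 (5.20%). The counts are small, with 4 footprints in each NCI-H1650 treated library and 30 at most among the libraries at 3 µM, and reads across the exon's borders may be counted with it. The log2 ratio of uc011mkq.3 to uc033eaf.2 was lower with RocA by 0.076 (-0.076, exact permutation p = 0.00154, adjusted 0.00216). The exon is among the first 4, so these values include the shift given above. Whether it gained more than the rest of those exons was not tested. Of their counts, NCI-H1650 had 21 of 61 and 13 of 40 in it under DMSO, 4 of 27 at 0.3 µM and 4 of 10 at 3 µM. In NCI-H520 these were, in the same order, 21 of 66, 34 of 110, 12 of 44 and 30 of 101. For Hs 936.T they were 143 of 421, 105 of 335, 26 of 76 and 20 of 76. For A375 they were 100 of 339, 114 of 412, 56 of 244 and 17 of 75. The exon's base composition does not stand out within DDX3X: 54.2% of its bases are purines against 56.1% of the coding sequence, and 66.6% of all 48-base windows of the coding sequence hold as many or more.

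The short entries that could not be placed fell into 2 kinds. Relative to uc033eaf.2, uc011mks.3 was higher with RocA by 0.96 and uc284rae.1 by 0.55 on the log2 scale, each at the smallest possible exact permutation p of 0.00154. For uc011mks.3 the share of the uc033eaf.2 count was 14.8% to 23.2% under DMSO and 25.8% to 55.6% with RocA. For uc284rae.1 it was 21.5% to 26.3% under DMSO and 26.5% to 43.4% with RocA. In the other direction, uc064yqm.2 differed by -0.43 (exact permutation p = 0.00154), with 18.2% to 23.7% under DMSO and 11.1% to 16.9% with RocA. The row uc064yqn.1 differed by -0.42 (exact permutation p = 0.00926, adjusted 0.0108), and its shares overlapped, at 13.1% to 16.9% under DMSO and 6.49% to 14.7% with RocA. The longest row, uc064yqa.1, whose counts are also those of the rows with 631 and 638 codons, differed by 0.011 (exact permutation p = 0.349). Although longer, it held 95.4% to 98.1% of the uc033eaf.2 count under DMSO and 95.5% to 100% with RocA.

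The same comparison over other genes showed how common such a shift is. It was added after the DDX3X ratios had been seen and used genes with a short entry that shares the start codon of the long one, spans at most 33.3% of its codons and overlaps it by at least 80%. Of 327 such genes, 292 had a higher ratio of short to long entry with RocA (89.3%) and 3 a lower one (0.917%, exact permutation within lines, adjusted p under 0.05). The median over these genes was 0.97 on the log2 scale, and DDX3X, at 1.27, was number 108 from the top. Of the 36 genes with a short entry that shares the stop codon, 13 had a lower ratio (36.1%) and 6 a higher one (16.7%), with a median of -0.27. With A375 at 0.3 µM left out, 288 genes had a higher and 3 a lower ratio among those sharing the start codon, where DDX3X (1.41) was number 86, and 6 had a higher and 11 a lower ratio among those sharing the stop codon. The shift of footprints towards the start was therefore present in DDX3X at a size common among these genes, and it is not particular to it.

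**Figure D4:**
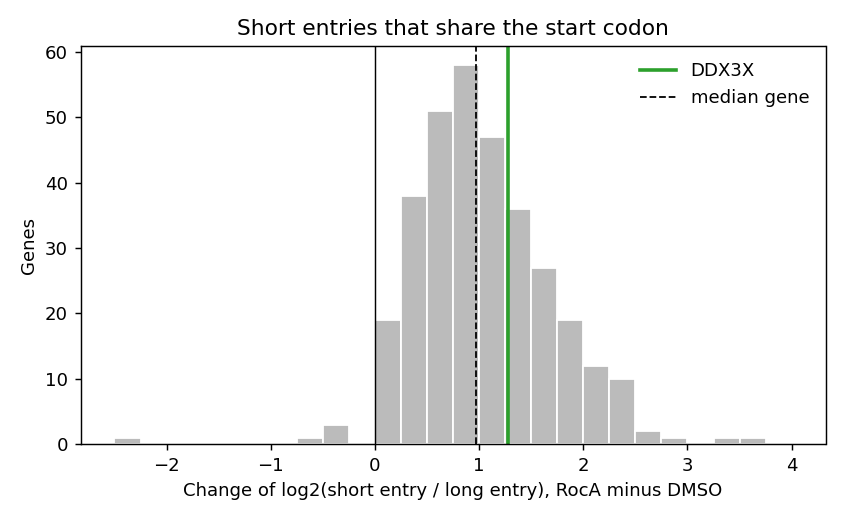
Number of genes by the change with RocA in the log2 ratio of a short entry to the long entry with the same start codon, for 327 genes. Most genes lie above 0, the dashed line marks their median of 0.97, and DDX3X lies at 1.27.

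The leader and coding start of DDX3X were described from GENCODE 29 on the same build. In the transcript DDX3X-217 the 5′ UTR has 479 bases, longer than in 90.6% of 12632 named genes, whose median is 164, and other DDX3X transcripts with the same coding sequence give 91 and 969 bases. Its GC content of 61% lay below the median of 65.2%. Purines made up 39.9% of it, against a median of 51% over 12162 genes, yet its longest purine run of 16 bases exceeded that of 93.7% of genes. The longest run was not scaled for the length of the leader. Per 100 positions, 4.64 began a stretch of 6 purines, more than in 70.4% of 11394 genes (median 2.74). The first 284 coding bases, printed above, were 58.5% purine, more than in 87.5% of 11406 genes. Their longest purine run, of 10 bases, exceeded that of 58.5% of these genes (median 9). Per 100 positions of this stretch, 5.73 began a stretch of 6 purines, more than in 76% of these genes (median 3.23). Runs of at least 6 purines occurred in the first 284 coding bases of 96.8% of genes, so their presence in DDX3X does not set it apart.

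DDX3X acts beside the cap-binding complex, so the genes of eIF4F and its regulators were read in the same fits. Of 15 tested, 3 were called higher and 7 lower at 0.3 µM, and 4 higher and 8 lower at 3 µM; the median log2 change was -0.23 and -0.66, against -0.09 and -0.16 over all genes. For each direction, 27.1% and 31.9% of all genes were called higher and lower at 0.3 µM and 24.2% and 31.9% at 3 µM. The counts were 3 and 8 at 0.3 µM and 4 and 8 at 3 µM without the A375 library at 0.3 µM. In that fit 1804 of 7966 genes were called higher and 2116 lower at 0.3 µM, and 1866 and 2465 at 3 µM. EIF4B, a cofactor that stimulates eIF4A, rose by 1.68 ± 0.10 at 0.3 µM and 1.74 ± 0.10 at 3 µM (log2, SE). EIF4A2 rose by 1.02 ± 0.11 and 1.44 ± 0.11. EIF4A1 and EIF4E, the cap-binding protein, were called at 3 µM only (0.36 ± 0.10 and 0.64 ± 0.13), and EIF4E2, a cap-binding homolog, at 0.3 µM only (0.60 ± 0.16).

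PDCD4, an inhibitor of eIF4A, fell at both doses (-2.17 ± 0.23 and -2.58 ± 0.29), and so did the poly(A)-binding proteins PABPC1 (-2.56 ± 0.29 and -2.82 ± 0.33) and PABPC4 (-2.94 ± 0.20 and -2.37 ± 0.20). PAIP2, which binds poly(A)-binding protein and represses it, fell, at -2.12 ± 0.19 and -2.24 ± 0.22. EIF4G2, a scaffold without an eIF4E site, fell, at -1.83 ± 0.14 and -2.08 ± 0.15. EIF4ENIF1, an eIF4E transporter, fell, at -1.99 ± 0.40 and -1.12 ± 0.40. The main scaffold EIF4G1 fell less, at -0.51 ± 0.12 and -0.72 ± 0.13, and PAIP1 was called at 3 µM only (-0.66 ± 0.19). EIF4G3 (-0.23 and -0.03) and the eIF4A cofactor EIF4H (-0.04 and -0.09) were called at neither dose. The DDX3X values over the lines, 0.35 and -0.34 with SE of 0.44 and 0.47, lie within the range of this list and have wider errors than any of its members.

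**Figure D5:**
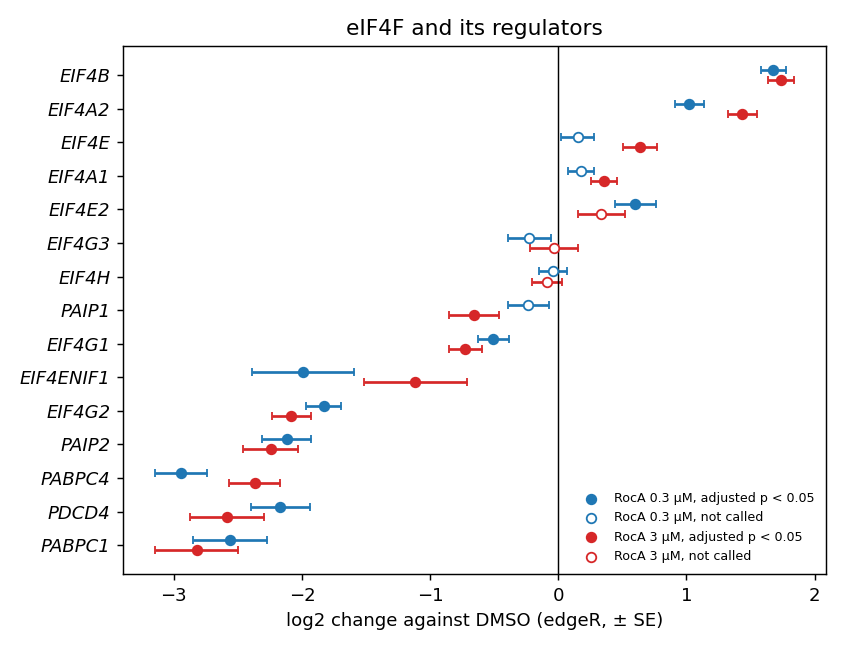
Log2 change of footprints against DMSO over the 4 lines (edgeR, bars are SE) for the 15 eIF4F genes and regulators tested, at 0.3 µM and 3 µM; filled points passed the adjusted threshold. EIF4B and EIF4A2 lie above 0 and PABPC1, PDCD4 and PABPC4 at or below -2.17 at both doses.

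Among 10 subunits of eIF3, the complex that joins the small ribosomal subunit to the mRNA, 6 were called higher and 2 lower at 0.3 µM, and 5 and 3 at 3 µM, with a median of 0.45 and 0.26. Over all genes 27.1% were called higher and 31.9% lower at 0.3 µM, and 24.2% and 31.9% at 3 µM, with a median of -0.09 and -0.16. The eIF3 counts were the same without the A375 library at 0.3 µM. In that fit 1804 of 7966 genes were called higher and 2116 lower at 0.3 µM, and 1866 and 2465 at 3 µM. EIF3F (1.69 ± 0.10 at 0.3 µM and 1.38 ± 0.11 at 3 µM) and EIF3C (1.47 ± 0.09 and 1.28 ± 0.10) rose most, and EIF3C has a near-identical copy with which reads may be shared. EIF3G (-0.85 ± 0.13 and -0.69 ± 0.14) and EIF3K (-0.46 ± 0.11 and -0.62 ± 0.12) fell most at 0.3 µM. The subunits thus did not move in 1 direction.

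Genes whose products have been reported to bind DDX3X were also divided. Of 17 tested, 4 were called higher and 8 lower at 0.3 µM, and 3 and 7 at 3 µM, with a median of -0.49 and -0.15. The shares over all genes were 27.1% higher and 31.9% lower at 0.3 µM and 24.2% and 31.9% at 3 µM, and the median at 3 µM was close to the -0.16 of all genes. Leaving out the A375 library at 0.3 µM gave 4 higher and 7 lower at 0.3 µM and 3 and 8 at 3 µM. In that fit 1804 of 7966 genes were called higher and 2116 lower at 0.3 µM, and 1866 and 2465 at 3 µM. XPO1, the nuclear export receptor, fell, at -2.20 ± 0.14 and -2.37 ± 0.15, and CTNNB1, which encodes β-catenin, fell, at -1.86 ± 0.13 and -2.16 ± 0.14. ATXN2, a cytoplasmic RNA-binding protein of stress granules, rose by 1.37 ± 0.13 and 1.01 ± 0.16. The helicase DDX5, which also counts among the DEAD-box genes below, rose by 1.14 ± 0.10 and 0.84 ± 0.10.

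Of 9 tested genes whose translation has been reported to depend on DDX3, none was called higher, 7 were called lower at 0.3 µM and 5 at 3 µM. Their median was -1.02 and -1.17 on the log2 scale, against -0.09 and -0.16 over all genes. Of all genes 31.9% were called lower at each dose, and 27.1% and 24.2% higher at 0.3 and 3 µM. GNB2, a G protein subunit, was among those that fell, at -1.35 ± 0.15 and -1.68 ± 0.17 (log2, SE). KLF4, a transcription factor, fell, at -1.28 ± 0.50 and -1.82 ± 0.57. The last, with a mean of 13.1 CPM, rests on few footprints. Without the A375 library at 0.3 µM, 10 genes were tested, with 5 called lower at each dose and 1 called higher at 3 µM. In that fit 1804 of 7966 genes were called higher and 2116 lower at 0.3 µM, and 1866 and 2465 at 3 µM.

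Among the other DEAD-box helicases, EIF4A1 and EIF4A2 included, 15 of 31 were called higher and 7 lower at 0.3 µM and 15 and 6 at 3 µM, at a median of 0.30 and 0.36. Over all genes 27.1% and 24.2% were called higher at these doses and 31.9% lower at each. With the A375 library at 0.3 µM left out, 12 were called higher and 6 lower at 0.3 µM and 15 and 5 at 3 µM. In that fit 1804 of 7966 genes were called higher and 2116 lower at 0.3 µM, and 1866 and 2465 at 3 µM. The nucleolar helicases DDX31 (1.71 ± 0.14 and 1.73 ± 0.16) and DDX52 (1.57 ± 0.11 and 1.70 ± 0.12) rose most. DDX6, which acts in mRNA decay and repression, fell, at -2.30 ± 0.16 and -1.85 ± 0.17, and so did DDX59, at -1.77 ± 0.36 and -1.65 ± 0.42. With all libraries kept, DDX3X itself lay between these and was called at neither dose. Of 5 tested genes that flank DDX3X on chromosome X, none was called higher, and 3 and 4 were called lower at 0.3 and 3 µM, where 31.9% of all genes were called lower at each dose and 27.1% and 24.2% higher. Leaving out that A375 library, 6 were tested, with 3 and 5 called lower and none higher. USP9X, a neighbouring deubiquitinase gene, fell, at -1.67 ± 0.35 and -1.66 ± 0.41, and CASK, a scaffold kinase gene, did too, at -1.66 ± 0.33 and -1.64 ± 0.41.

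The genes most like DDX3X in level over the 16 libraries were sought among 7174 genes by Pearson's r of log2 CPM, given as a description because the libraries share lines and depth. They were PRPF4B (r = 0.677), NT5DC2 (0.647), GSTM1 (0.646), GNPDA2 (0.639) and TPRKB (0.638). After centring each gene on its line mean they were SKA2 (0.786), SSH2 (0.784), MERTK (0.778), MBOAT2 (0.769) and PRDM2 (0.745). Without the A375 library at 0.3 µM the centred r was 0.649 for SKA2 and 0.707 for SSH2 but 0.0959 for MERTK, 0.352 for MBOAT2 and 0.306 for PRDM2, so the likeness of these last genes rests on that library.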

How the data were processed

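Ribosome footprints were counted in 16 libraries. Per the submitters' processing notes, the tools were CASAVA 1.8, Bowtie2 2.1.0 and TopHat2 2.0.9 with hg38, and their settings are not given in the sources used here. For each of 182398 transcript entries the authors deposited a codon number and a raw read count, with no normalization. The codon number equals the coding codons, stop included, less 10, which was tested on the files. Reads are repeated over the entries of a gene, so only 1 entry per gene entered library sizes and tests.

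The identifiers were not paired with names in the files used. Genes were named by matching the coding lengths of neighbouring entries to GENCODE 29 (hg38), and shifted decoy length sets were matched 1.76% and 1.49% as often in 2 passes. How entries shared by 2 genes were assigned was settled after seeing that DDX3X had been dropped. Noncoding entries and those of 0 or fewer codons held no counts.

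The tests on counts ran in edgeR 4.0.16 under R 4.3.3 (quasi-likelihood, robust, TMM, filterByExpr with a minimum count of 10, Benjamini-Hochberg adjusted p under 0.05) and DESeq2 1.42.0 as an alternative. The dose fit had line and dose as terms. Responses per line used a mean per line and dose, with the spread from the DMSO pairs. The SE is the change divided by the square root of F. Normalization used 1 row per gene, and p-values were adjusted over all genes together with the other 7 distinct DDX3X rows. Row ratios took a pseudocount of 0.5 and an exact permutation test with treatment permuted within each line. Shares have exact Clopper-Pearson 95% intervals, which cover counting error only. CPM are counts scaled to a common total of named-gene counts with TMM factors. The tests were checked on simulated data.

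The replicate numbers of DMSO libraries did not pair lines: deviations of same-numbered libraries correlated at -0.0237 to 0.121. Named were DDX3X, its rows, all tested eIF4F-list genes, in other lists up to 2 largest rises and falls called at each dose, and the 5 genes most alike by each measure; 1 gene under this rule is not reported here. The members and lists were chosen with earlier results of these data known. The Y-linked paralog, EIF4A3 and histone genes were not analysed here, and protein sequences were not used.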

Additional observations from a re-analysis of the deposited data

Results flagged for a closer look

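Within each dose the 4 lines' changes of each DDX3X row were examined for a value far from the others, as were the shares of the first exons and of the third exon, 20 groups in all. Chance alone would single out about 1 in 20 such groups. In 4 of the 20 the A375 library at 0.3 µM lay apart from the other 3 lines. These were the log2 changes in CPM (treated library less the mean of the DMSO logs) of uc033eaf.2 (1.99), uc011mkq.3 (1.98), uc064yqn.1 (1.76) and uc064yqm.2 (1.70). The rows share reads and are not independent of each other. That library's 5′ share, 19.4%, was also the lowest of the treated ones, and its PMEL level, 89.21 CPM, was above the 14.6 CPM of A375 under DMSO and near the 85.91 CPM of A375 at 3 µM.

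The response at 0.3 µM differed between lines in 2 direct tests with edgeR. In A375 it exceeded the mean of the other lines by 2.60 (adjusted p = 0.000263). In Hs 936.T it lay below that mean by a log2 difference of -1.25 (adjusted p = 0.0233), a value that was -0.43 (adjusted p = 0.511) once A375 at 0.3 µM was left out.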

How the results depend on the processing

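Treated libraries are shallow and single, so a change in 1 line has no replicate check. The A375 library at 0.3 µM sets several signs. Without line A375 the change of DDX3X was -0.64 at 0.3 µM and 0.42 for 3 µM against 0.3 µM. For values that changed call or direction the cause was not tested, except where fewer libraries or another row make up the alternative.

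With no filter on low counts, DDX3X was called at -0.46 for 3 µM and -0.69 for 3 µM against 0.3 µM, at -0.73 in NCI-H520 at 0.3 µM (-0.85 against the other lines), at -0.43 for Hs 936.T and -0.72 for A375 at 3 µM, and at -0.20 for NCI-H520 against A375 under DMSO. The 3 µM differences from the other lines were 0.26 for NCI-H1650 and -0.013 for Hs 936.T. With DESeq2 size factors the former was 0.14. With all distinct coding entries in the fit, 22152, 21987 and 1132 entries were called for 0.3 µM, 3 µM and 3 µM against 0.3 µM, against 4477, 4256 and 251 genes, and A375 at 3 µM was called at -0.71.

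Other rows taken for the gene gave 1.29 (uc064yqg.1) and 1.07 (uc011mks.3) at 0.3 µM, and 1.17 (uc064yqg.1), 0.33 (uc284rae.1) and 0.82 (uc011mks.3) at 3 µM. For uc033eaf.2 less uc064yqg.1, chosen after seeing the data, the responses were -0.90 in NCI-H1650 and -0.86 in NCI-H520 at 0.3 µM, and -0.96 in NCI-H520, -0.65 for Hs 936.T and -1.15 for A375 at 3 µM. With A375 at 0.3 µM left out as well, it gave -1.02 at 0.3 µM and -0.87 at 3 µM over the lines, both called, and 0.14 between the doses. Its 3 µM differences from the other lines were 0.23 for NCI-H1650 and -0.13 for NCI-H520.

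Without the 2 libraries labelled NCI-H521, 3 µM changes were called in Hs 936.T (-0.43) and A375 (-0.69), the NCI-H1650 difference at 3 µM was 0.33, and the DMSO differences of NCI-H520 were -0.37 from Hs 936.T, -0.44 from A375 and, for NCI-H1650 against it, -0.21. Genes called between the doses fell to 117 without those libraries, 145 without NCI-H520 and 45 without Hs 936.T. The ratio of uc064yqn.1 was -0.39 without NCI-H520 and -0.41 without Hs 936.T, no longer called. With the DMSO replicate numbers as a block, which do not pair the lines, NCI-H1650 against NCI-H520 was -0.44 and no longer called (adjusted p = 0.0635), and no other call changed.

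Leaving out each library in turn gave the following ranges. DDX3X lay between -0.68 and 0.74 at 0.3 µM, -0.54 and -0.0043 at 3 µM, and -1.09 and 0.35 between the doses, where 72 to 284 genes were called. At 0.3 µM the NCI-H520 response lay between -0.70 and -0.25, and differences from the other lines between -1.21 and 0.24 for NCI-H1650, -1.25 and 0.19 for NCI-H520 and -1.67 and -0.43 for Hs 936.T. At 3 µM responses lay between -0.28 and 0.17 in NCI-H520 and -0.77 and -0.43 in A375, and differences between -0.22 and 0.16 for NCI-H1650 and -0.051 and 0.22 for Hs 936.T. Under DMSO, NCI-H1650 lay between -0.66 and -0.21 against NCI-H520, -0.64 and -0.51 against Hs 936.T and -0.80 and -0.44 against A375. NCI-H520 lay between -0.37 and 0.083 against Hs 936.T and -0.44 and 0.022 against A375, and Hs 936.T between -0.24 and 0.10 against A375. Without A375 at 0.3 µM, 1 DDX3-dependent gene was called higher at 3 µM. Of all values under alternatives, 611 kept their direction and call or, for counts, stayed within 1.5 times, 28 reversed in sign, 33 were newly called, 14 were no longer called and 10 counts moved by over 1.5 times.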
